A study of Mus musculus with 30 samples.

Results

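The 39 genes described here are interferon-stimulated effectors and sensors of the mouse, chosen by symbol for their place in the type I interferon response. All 39 were among the 46078 genes of the count table, and 39 of 39 passed the filter on low counts that left 13880 genes to test. They were followed in 30 RNA-sequencing libraries of sorted microglia, macrophages that live in the brain and spinal cord, from C57BL/6 mice. Young mice were either KO, with the genotype Atg7fl/fl Cx3cr1CreERT, or WT, given as Atg7wt/wt Cx3cr1CreERT2. Both genotypes thus carried an inducible Cre driven by Cx3cr1, a gene also used by other macrophages and by monocytes, and both were given 3 tamoxifen treatments of 4 mg with 48 h between them. Old mice are labelled ATG7_WT, with their Cre genotype and tamoxifen treatment not given in the sources used here. Experimental autoimmune encephalomyelitis (EAE), an immune attack on myelin, was started at least 18 days after tamoxifen with recombinant mouse MOG (residues 1 to 125) and pertussis toxin. The groups were naive KO, naive old and naive WT with 4 libraries each, KO with 4 and WT with 3 libraries at day 21 of EAE, and KO with 4, old with 3 and WT with 4 libraries at day 35. Cells were live and CD11b+, intermediate for CD45 and Ly6G-, and/or eYFP+. Cells of both sexes were pooled 1:1.

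Type I interferons signal through the receptor chains IFNAR1 and IFNAR2 and the kinases JAK1 and TYK2 to a transcription factor complex that includes STAT2 and IRF9. This complex binds the interferon-stimulated response element (ISRE) in the promoters of its target genes. Interferon-gamma has its own receptor and acts through another element (GAS), and many interferon-stimulated genes answer to both. Their products bind viral RNA, degrade it, block translation or membrane fusion, sense nucleic acids, or feed back on the pathway, and in the brain microglia are among the cells that make and answer type I interferon.

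Members lie partly in clusters: Ifit1, Ifit2, Ifit3 and Ifit3b on chromosome 19, the Oas and Oasl genes on chromosome 5, and Ifi204 beside Ifi207 on chromosome 1. Promoters of 28 of the 39 members were in the RefSeq table for GRCm38.p6 (250 bases before to 50 after the start of the gene). The ISRE core, GAAA followed after any 2 bases by GAAA and searched on both strands, was present in 16 of these 28 (57.1%), against 3.99% of the promoters of 27025 genes. The GAS letters TTCNNNGAA were present in 6 of 28 (21.4%), against 9.55% of all genes. A match describes letters in the window and not a bound site. The 250 bases before the start are printed for 4 members with matches in the Ifit cluster and at Isg15, and for Rsad2 and Cmpk2, which lie side by side on chromosome 12 on opposite strands. All are from GRCm38.p6, read on the strand of the gene, with ISRE core matches of either strand in capitals.
Isg15: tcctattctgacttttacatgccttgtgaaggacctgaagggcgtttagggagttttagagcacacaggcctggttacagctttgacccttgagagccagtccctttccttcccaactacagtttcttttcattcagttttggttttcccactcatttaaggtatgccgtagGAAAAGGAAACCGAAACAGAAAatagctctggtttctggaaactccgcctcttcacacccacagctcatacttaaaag
Ifit1: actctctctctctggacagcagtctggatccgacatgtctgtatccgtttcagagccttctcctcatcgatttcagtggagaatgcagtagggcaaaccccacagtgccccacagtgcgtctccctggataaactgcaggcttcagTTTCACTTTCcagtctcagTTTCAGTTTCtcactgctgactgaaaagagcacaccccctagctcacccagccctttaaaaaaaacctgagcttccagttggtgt
Ifit3: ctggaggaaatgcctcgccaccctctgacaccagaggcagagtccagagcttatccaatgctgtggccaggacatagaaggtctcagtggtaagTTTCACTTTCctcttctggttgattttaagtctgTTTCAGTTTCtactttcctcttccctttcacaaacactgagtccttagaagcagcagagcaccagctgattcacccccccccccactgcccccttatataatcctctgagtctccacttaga
Ifit3b: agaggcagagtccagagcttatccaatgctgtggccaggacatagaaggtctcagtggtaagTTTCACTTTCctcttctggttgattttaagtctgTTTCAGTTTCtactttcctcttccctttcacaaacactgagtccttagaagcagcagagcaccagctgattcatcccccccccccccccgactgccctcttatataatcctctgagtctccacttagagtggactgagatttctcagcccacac
Rsad2: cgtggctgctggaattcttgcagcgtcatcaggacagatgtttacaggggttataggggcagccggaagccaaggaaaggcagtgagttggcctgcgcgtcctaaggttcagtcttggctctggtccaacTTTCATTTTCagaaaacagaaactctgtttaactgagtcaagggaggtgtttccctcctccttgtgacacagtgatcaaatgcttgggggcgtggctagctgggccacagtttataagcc
Cmpk2: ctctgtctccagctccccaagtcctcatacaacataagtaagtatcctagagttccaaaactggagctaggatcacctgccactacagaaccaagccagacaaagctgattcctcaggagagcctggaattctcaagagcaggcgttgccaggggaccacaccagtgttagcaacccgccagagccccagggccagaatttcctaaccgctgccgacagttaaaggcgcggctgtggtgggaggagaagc

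These windows are chr4:156200819-156201068 (Isg15, minus strand), chr19:34640639-34640888 (Ifit1, plus strand), chr19:34583279-34583528 (Ifit3, plus strand), chr19:34607707-34607956 (Ifit3b, plus strand), chr12:26456453-26456702 (Rsad2, minus strand) and chr12:26468965-26469214 (Cmpk2, plus strand). Isg15 had 3 overlapping matches within its run of capitals, Ifit1, Ifit3 and Ifit3b had 2 each, Rsad2 had 1, and Cmpk2 had 0 in its 300-base promoter. Ifit2, also of the Ifit cluster and not printed, had 0 in each of its RefSeq promoters. Compared without gaps at the best single shift, the promoters of Ifit3 and Ifit3b were identical at 75% of 268 bases. Those of Oas1a and Oas1g were identical at 69.5% of 298 in the same way. Bases past an insertion or deletion are out of register in such a comparison, so these shares may understate the likeness. The transcripts of these pairs also share sequence: 51.2% of the 50-base stretches of Ifit3 occurred in another gene, mostly Ifit3b, and 57.6% of those of Oas1a, mostly Oas1g. Their counts may therefore be divided between copies, and values of Ifit3, Ifit3b, Oas1a and Oas1g are uncertain to that extent. Parp9 overlaps Dtx3l and an antisense gene on the opposite strand, and without a stated strand setting of the counting their reads cannot be told apart.

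Library totals ran from 4712803 to 11034565 counts, with a median of 6769302. Atg7, the targeted gene, averaged 20.1 ± 8.61 CPM (counts relative to the TMM-scaled size of the library; mean ± SD) in naive KO and 31.6 ± 6.30 in naive WT, but 32.8 ± 2.73 in KO and 23.2 ± 3.02 in WT at day 21, and 32.4 ± 1.51 in KO and 22.5 ± 1.40 in WT at day 35, so its level did not separate the genotypes in 1 direction. These counts cover the whole gene and not the floxed part alone, so they do not check the deletion. One library, day 35 WT 3, has WT in its title and KO in another label, and was kept as WT. Markers of homeostatic microglia (12 genes) summed to between 9099 and 32787 CPM in every library. Markers of neutrophils, which the Ly6G gate was to remove, summed to over 10000 CPM in naive WT 3, naive old 4 and day 35 old 1. In bulk RNA, a different share of cells of a type and a different amount of RNA per cell cannot be told apart.

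Of the 8 groups, day 21 KO held the most RNA of the 39 members and the naive KO and naive WT groups the least. Summed over the members, libraries held 1106 to 1396 CPM in naive KO, 1397 to 1742 in naive old and 1031 to 1497 in naive WT. At day 21 the sums were 4490 to 4711 CPM in KO and 2705 to 2751 in WT, and at day 35 they were 1918 to 2380 in KO, 1828 to 3037 in old and 1505 to 1943 in WT. Day 21 KO had the highest mean of 36 of the 39 members, day 35 old of 2 and day 21 WT of 1. The median member's log2 ratio to naive WT was 0.01 in naive KO, 0.54 in naive old, 1.497 in day 21 WT, 2.04 in day 21 KO, 0.62 in day 35 WT, 0.99 in day 35 KO and 1.08 in day 35 old. Libraries of day 35 KO, day 35 old and day 35 WT overlapped one another in the sum. Those of naive WT overlapped both naive KO and naive old. Per kilobase of exon, and averaged over the groups, the most abundant members were Ifitm3 (71.2 CPM per kb), which blocks the fusion of virus with the cell membrane, Ifi27l2a (39.2), Trim30a (34.9) and Bst2 (34.0), a tether of budding virus. Ifi44 was the least abundant (0.727 CPM per kb).

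**Figure D1:**
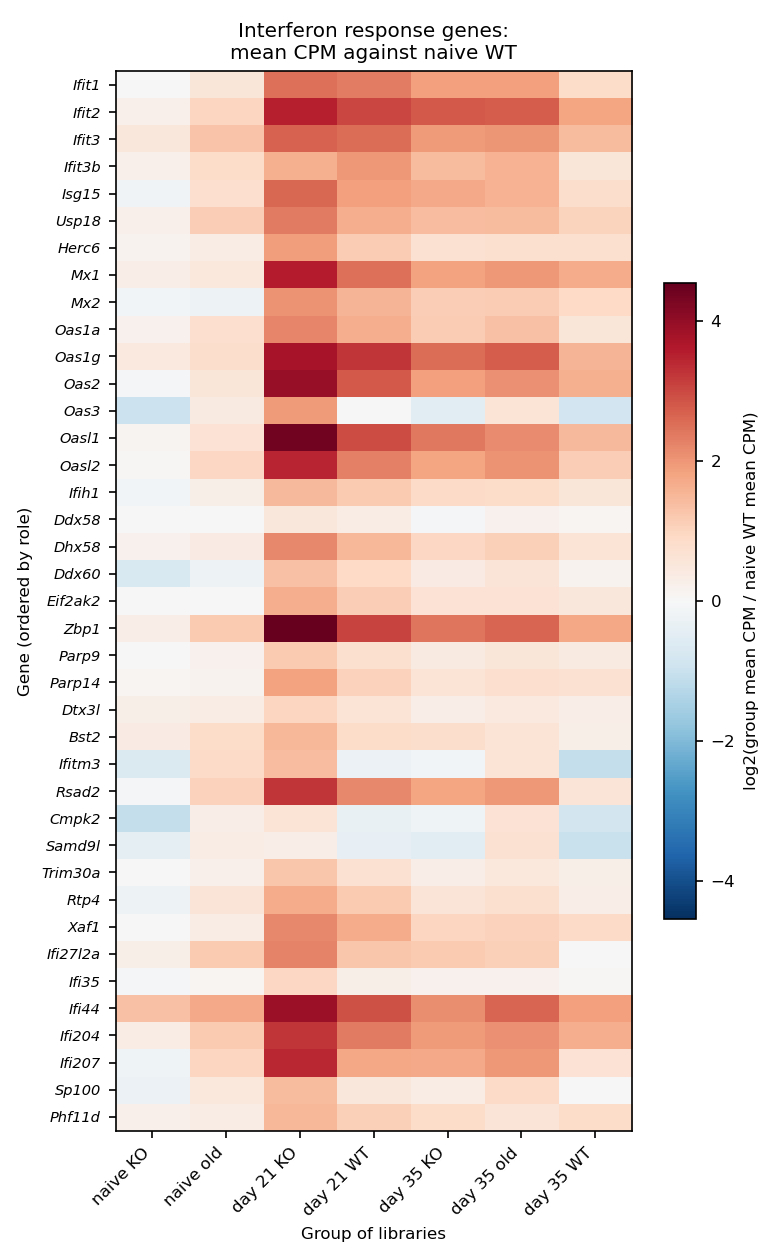
Heat map of the 39 interferon response genes (rows, ordered by role) in 7 groups (columns), coloured by the log2 ratio of the group's mean CPM to the naive WT mean. The day 21 KO column is the darkest red (median 2.04), while Oas3, Ifitm3, Cmpk2 and Samd9l are pale or blue in WT microglia with EAE.

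In WT microglia at day 21, 33 of the 39 members rose against naive WT and 0 fell (adjusted p under 0.05, edgeR's quasi-likelihood test with Benjamini-Hochberg adjustment over the 13880 genes). Of all genes tested, 9.51% rose and 12% fell. The members' median log2 fold change was 1.49, and that of all genes was -0.0070. Of the 33 calls, 32 held whichever single library was left out. The exception was Ddx58, the RNA sensor RIG-I, whose adjusted p reached 0.136.

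All 4 Ifit genes, whose products bind viral RNA ends, rose in WT at day 21. Ifit3 had 42.6, 47.3 and 43.8 CPM in the day 21 WT libraries, against 4.99, 7.96, 10.9 and 6.97 in naive WT. The groups were far apart, with every day 21 library above every naive one. The log2 fold change was 2.53 ± 0.21 (SE; adjusted p = 1.97e-09, edgeR). Its neighbours followed at 3.02 for Ifit2, 2.33 for Ifit1 and 1.95 for Ifit3b.

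The ubiquitin-like modifier Isg15, its protease Usp18 and the ISG15 ligase Herc6 rose as well. Herc6 had 87.8, 83.7 and 85.0 CPM in day 21 WT libraries, against 42.4, 33.7, 38.8 and 39.1 in naive WT. These groups did not overlap, at a log2 fold change of 1.15 ± 0.11 (SE; adjusted p = 4.23e-08, edgeR). Both Mx genes, a family of antiviral GTPases, rose at the RNA level. Mx1 is known to be defective in C57BL/6 mice, and Mx2 is annotated as a polymorphic pseudogene. Mx1 had 70.9, 76.4 and 73.6 CPM in day 21 WT libraries, against 11.5, 12.2, 16.3 and 11.8 in naive WT, a log2 fold change of 2.51 ± 0.22 (SE; adjusted p = 8.88e-09, edgeR).

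Of the 6 OAS family genes, which make the messenger that activates RNase L or, as Oasl1, restrain translation of Irf7, 5 rose. Oasl1 had 17.9, 24.1 and 18.0 CPM in day 21 WT libraries, against 1.61, 3.04, 3.73 and 1.85 in naive WT. The lowest day 21 library was well above the highest naive one, and the log2 fold change was 2.98 ± 0.33 (SE; adjusted p = 2.45e-07, edgeR). All 6 sensor and sensor-like genes rose, between 0.35 for Ddx58 and 3.08 for Zbp1, a sensor of Z-form nucleic acids that can start cell death. Eif2ak2 (PKR), the RNA-activated kinase that halts translation, had 138.3, 149 and 155 CPM in day 21 WT libraries, against 55.9, 71.4, 79.1 and 67.6 in naive WT. Here too the groups did not overlap (log2 fold change 1.11 ± 0.12 SE, adjusted p = 1.78e-07, edgeR).

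Smaller changes were seen for the ADP-ribosyltransferases Parp9 and Parp14 and the ubiquitin ligase Dtx3l, all 3 of which rose (0.62 to 1.04). Parp14 had 349, 338 and 362 CPM in day 21 WT libraries, against 176.8, 156.4, 188 and 155.7 in naive WT (log2 fold change 1.04 ± 0.12 SE, adjusted p = 3.26e-07, edgeR). Bst2 had 28.1, 37.7 and 34.5 CPM in day 21 WT libraries, against 21.6, 19.9, 17.2 and 16.1 in naive WT. Its groups lay close but apart, at 0.84 ± 0.18 (SE; adjusted p = 0.00113, edgeR). Xaf1, known as an antagonist of the apoptosis inhibitor XIAP, had 62.0, 55.7 and 47.3 CPM in day 21 WT libraries, against 14.1, 17.1, 20.9 and 15.5 in naive WT (1.70 ± 0.19 SE, adjusted p = 3.26e-07, edgeR). The DNA-binding HIN200 gene Ifi204 had 143.6, 130 and 127.3 CPM in day 21 WT libraries, against 13.4, 24.4, 47.8 and 17.9 in naive WT (2.37 ± 0.25 SE, adjusted p = 2.86e-07, edgeR).

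The 6 members not called in WT at day 21 were Oas3 (log2 fold change 0.03), Ifitm3 (-0.28), Cmpk2 (-0.34), Samd9l (-0.37), Sp100 (0.52) and Ifi35 (0.26). The first 5 varied widely among naive WT libraries. Ifitm3 had 32.9, 32.9 and 30.8 CPM in day 21 WT libraries, against 16, 31.6, 64.0 and 44.6 in naive WT. Samd9l, a cytoplasmic restriction factor, had 37.3, 38.1 and 42.4 CPM in day 21 WT libraries, against 17.8, 51.1, 87.9 and 46.1 in naive WT. For both genes the lowest naive value was in naive WT 1 and the highest in naive WT 3, and the day 21 values lay between them. Summed neutrophil markers were 29.6, 7.45 and 26.2 CPM in day 21 WT 1 to 3, against 1533, 7618, 16374 and 8892 CPM in naive WT 1 to 4. Among the naive libraries these sums too were lowest in WT 1 and highest in WT 3. At day 21 they were below the sum of naive WT 1, while both genes were above their values in naive WT 1. All 12 neutrophil markers were tested genes, and their part in the values was not tested. Without naive WT 3, Sp100, a nuclear body protein, passed the test (0.84, adjusted p = 0.0268, edgeR) while Ifitm3, Samd9l and Cmpk2 had log2 fold changes of 0.067, 0.049 and 0.19. Cmpk2, a mitochondrial nucleotide kinase, and Rsad2 (viperin), which makes a chain-terminating nucleotide, are neighbours on chromosome 12. Rsad2 was among the 33 that rose in WT and Cmpk2 was not called, with the difference between them not tested. All 12 neutrophil markers were called lower in WT at day 21 than in naive WT (median log2 fold change -8.59). So were 6 of 10 monocyte, 7 of 8 border macrophage and 6 of 12 homeostatic microglia markers.

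**Figure D2:**
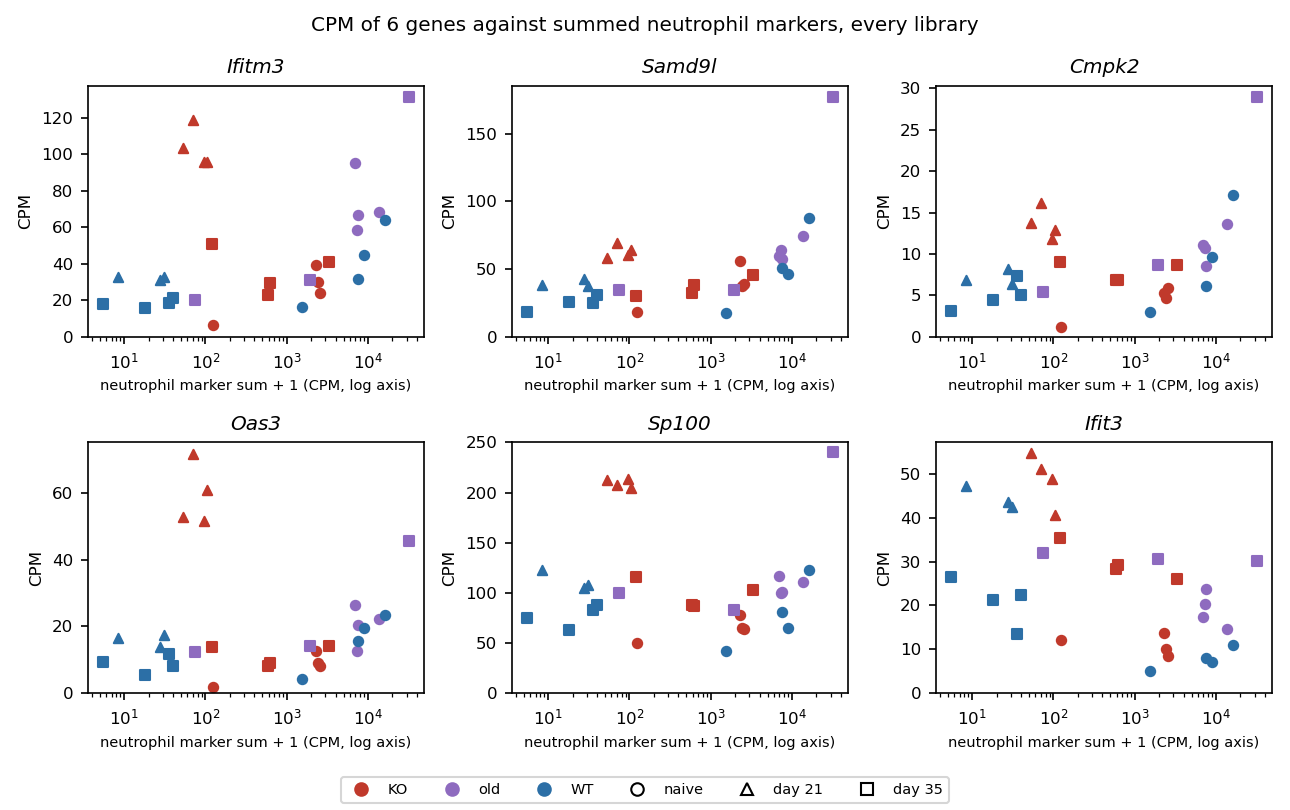
CPM of 6 genes (vertical axes) against the summed CPM of 12 neutrophil markers plus 1 (horizontal axes, log scale) in each of the 30 libraries, with colour for KO, old or WT and shape for naive, day 21 or day 35. Naive KO 4 and naive WT 1, the naive libraries with the lowest sums (121 and 1533 CPM), hold the 2 lowest naive values of Ifitm3, Samd9l, Cmpk2, Oas3 and Sp100, and day 35 old 1, at 31722 CPM of neutrophil markers, stands at the right; Ifit3 in that library is 30.2 CPM, beside 30.5 and 31.9 in the other day 35 old libraries.

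In KO microglia at day 21, 38 of the 39 members rose against naive KO and 0 fell, and each of the 38 calls held without any single library. Of all genes, 22.5% rose and 22.7% fell. The median log2 fold change of the members was 2.03. The largest were Oasl1 (4.27), Zbp1 (4.25), Oas2 (4.02) and Ifi207 (3.63). Ifitm3 rose here by a log2 fold change of 2.05 ± 0.49 (SE; adjusted p = 0.00162, edgeR), while Samd9l was the member not called (0.74, adjusted p = 0.166). Rsad2 and Cmpk2 both rose in KO. Summed neutrophil markers were 51.9 to 103.8 CPM in day 21 KO and 121 to 2601 CPM in naive KO, with 10 of 12 called lower. All 12 homeostatic microglia markers were lower and 3 of 8 T and NK cell markers higher in day 21 KO than in naive KO.

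Set directly against WT at day 21, KO microglia had 22 of the 39 members higher and 0 lower by the same test. Of all genes tested, 9.18% were higher in KO and 9.86% lower. The median log2 fold change of the members was 0.68 and that of all genes was 0.0021. The count fell to 12 without day 21 WT 3 and to 14 without WT 1 or WT 2, and lay between 18 and 21 when a KO library was left out. Shares of all genes called in these fits are not given here. Called in each of these 7 fits were 10 members: Herc6, Mx1, Oasl1, Dhx58, Eif2ak2, Zbp1, Parp9, Parp14, Trim30a and Ifi207. Markers of other cells differed between the same libraries. The 10 monocyte markers summed to 2197 to 3030 CPM in day 21 KO and 176 to 492 CPM in day 21 WT, with 5 of the 10 called higher. Of 12 T and NK cell markers 8 could be tested and all 8 were called higher, with sums of 26.0 to 34.6 CPM in KO and 1.90 to 7.52 CPM in WT. Homeostatic microglia markers summed to 10730 to 11412 CPM in KO and 19676 to 23452 CPM in WT. The part of these differences in the members' values was not tested.

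Zbp1 had 226, 250, 240 and 253 CPM in day 21 KO libraries, against 103.99, 78.6 and 82.2 in day 21 WT. Every KO library was more than 100 CPM above every WT library. The log2 fold change was 1.46 ± 0.29 (SE; adjusted p = 0.00109, edgeR). Mx1 had 149, 155, 152.5 and 160 CPM in KO, against 70.9, 76.4 and 73.6 in WT, and the groups were far apart at 1.07 ± 0.21 (SE; adjusted p = 0.000733, edgeR). Oasl1 had 50.5, 57.4, 54.0 and 50.4 CPM in KO, against 17.9, 24.1 and 18.0 in WT, again with no overlap, at 1.41 ± 0.29 (SE; adjusted p = 0.00114, edgeR). Ifi207, a HIN200 gene beside Ifi204, had 259, 240, 206.97 and 228 CPM in KO, against 91.3, 62.3 and 65.5 in WT, at 1.68 ± 0.41 (SE; adjusted p = 0.00579, edgeR).

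Herc6, Parp14 and Trim30a had narrow spreads. Herc6 had 141, 134.2, 159 and 145 CPM in day 21 KO, against 87.8, 83.7 and 85.0 in day 21 WT (0.76 ± 0.11 SE, adjusted p = 3.54e-05, edgeR). Parp14 had 541, 586, 633 and 620 CPM in KO, against 349, 338 and 362 in WT (0.77 ± 0.12 SE, adjusted p = 7.88e-05, edgeR). Trim30a, known in mice as a restraint on TLR signalling, had 233, 259, 259 and 248 CPM in KO, against 160, 177.4 and 171.9 in WT (0.55 ± 0.096 SE, adjusted p = 0.000194, edgeR). For all 3 the lowest KO library exceeded the highest WT library by more than the range within WT. Other called members lost the call when a library was removed. Bst2 had 55.5, 48.0, 53.1 and 55.0 CPM in KO, against 28.1, 37.7 and 34.5 in WT (0.66, adjusted p = 0.0085, edgeR, and 0.0591 without day 21 WT 1). Oas3 had 52.8, 71.8, 51.6 and 60.9 CPM in KO, against 17.4, 16.4 and 13.9 in WT (1.90, adjusted p = 0.0093, and 0.0558 without day 21 WT 3). Ifitm3 had 103.1, 119, 95.4 and 95.8 CPM in KO, against 32.9, 32.9 and 30.8 in WT (1.68, adjusted p = 0.0297, and up to 0.107 with 1 library left out).

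None of the 4 Ifit genes was called between KO and WT at day 21. Ifit3 had 54.9, 51.3, 48.9 and 40.7 CPM in day 21 KO, against 42.6, 47.3 and 43.8 in day 21 WT, so the groups overlapped (0.13 ± 0.19 SE, adjusted p = 0.671, edgeR). Ifit1 had 33.7, 33.0, 35.5 and 36.2 CPM in KO, against 31.6, 31.0 and 28.9 in WT (0.18 ± 0.29 SE, adjusted p = 0.70). Ifit2 had 244, 190, 217 and 184 CPM in KO, against 157.7, 145 and 145 in WT, without overlap but not past the threshold (0.49 ± 0.28 SE, adjusted p = 0.232). Ifit3b was the single member with a negative value (-0.36 ± 0.36 SE, adjusted p = 0.523). Isg15 had 26.6, 20, 26.1 and 22.6 CPM in KO, against 15.2, 14.6 and 13.3 in WT (0.73, adjusted p = 0.0649). By role, 3 of 3 Parp and Dtx3l genes, 2 of 2 membrane restriction genes, 4 of 6 OAS genes, 3 of 4 nuclear and HIN200 genes, 2 of 3 genes of the ISG15 system, 1 of 2 Mx genes, 3 of 6 sensors and 4 of 9 other effectors were higher in KO.

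**Figure D3:**
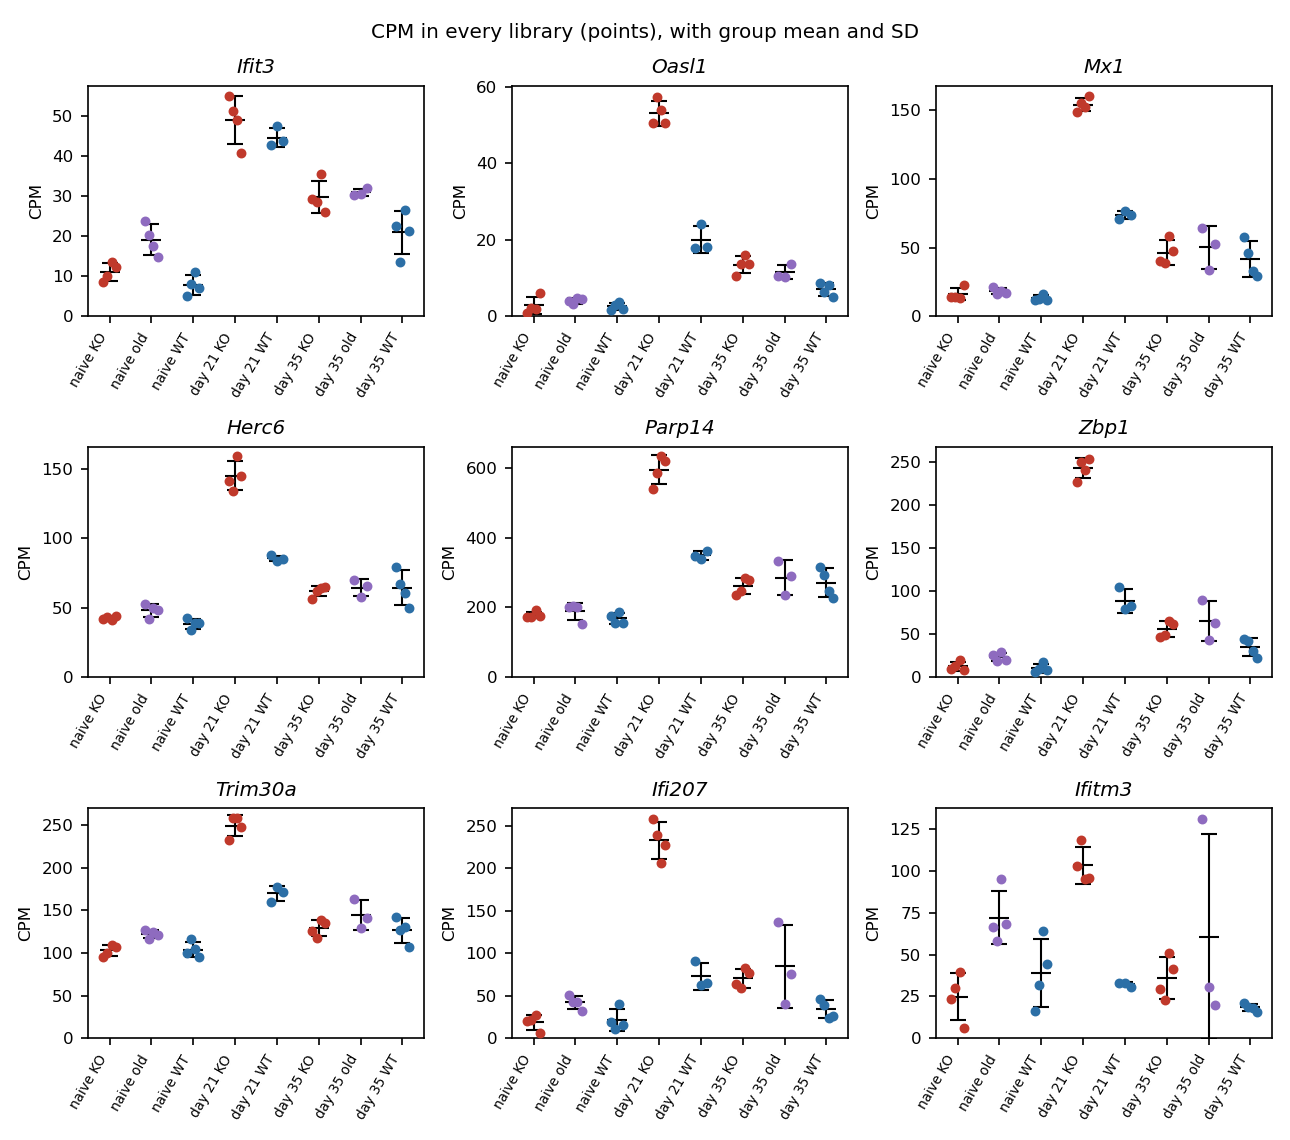
CPM of 9 members in every library (points), with the mean and SD of each group (bar and whiskers), for naive, day 21 and day 35 groups from left to right, KO in red, old in purple and WT in blue. Ifit3 of KO and WT overlaps at day 21, while the other 8 genes have all 4 day 21 KO libraries above the 3 WT libraries; the SD whisker of Ifitm3 in day 35 old runs below the axis at 0.

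The change that EAE brought by day 21 was compared between the genotypes as a difference of differences. It was larger in KO for 8 members and smaller for 0 (Herc6, Oas3, Ddx60, Eif2ak2, Parp14, Ifitm3, Trim30a and Ifi207). Of all genes tested, 4.72% had a larger and 4.96% a smaller value in KO. Herc6 had a difference of 0.62 ± 0.16 (SE; adjusted p = 0.0142), Parp14 of 0.69 ± 0.17 (adjusted p = 0.00997) and Trim30a of 0.57 ± 0.13 (adjusted p = 0.0082, all edgeR). These 3 together with Oas3 and Ddx60, a helicase that promotes RIG-I signalling, were called in each of the 15 fits without 1 library. Ddx60 averaged 17.6 ± 4.36 CPM in naive KO and 28.3 ± 4.97 CPM in naive WT (SD, n = 4 each), with no overlap of libraries. Oas3 had 8.17, 8.88, 12.5 and 1.90 CPM in naive KO, against 4.11, 15.5, 23.3 and 19.4 in naive WT. Ifitm3 had 23.7, 30.1, 39.3 and 6.15 CPM in naive KO, against 16, 31.6, 64.0 and 44.6 in naive WT. Neutrophil markers summed to 121 to 2601 CPM in naive KO and 1533 to 16374 CPM in naive WT. All 12 had lower values in KO, 7 with an unadjusted p under 0.05 and 0 called (edgeR), and their part was not tested. The calls of Eif2ak2, Ifitm3 and Ifi207 were each lost without some libraries, with adjusted p up to 0.093, 0.117 and 0.13. The count was 5 without any of 7 libraries (naive KO 1 or 2, naive WT 3, day 21 KO 2 or 4, day 21 WT 2 or 3) and 14 without naive WT 1.

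Between day 21 and day 35 the members fell in KO microglia. By edgeR, 35 of 39 were lower at day 35 than at day 21 in KO, with 0 higher, a median log2 fold change of -1.04, and 32 calls that held without any single library. Of all genes 11.7% were lower and 13.3% higher. Oas3 fell by 2.39 ± 0.46 (SE; adjusted p = 0.00059) and Zbp1 by 2.12 ± 0.27 (SE; adjusted p = 4.24e-06, edgeR) on the log2 scale. Zbp1 had 47.0, 48.4, 65.2 and 61.3 CPM in day 35 KO libraries, all far below the day 21 KO values given above. Ifit3 had 29.3, 28.4, 35.4 and 26.0 CPM in day 35 KO, below the lowest day 21 KO library at 40.7 CPM (-0.71 ± 0.18 SE, adjusted p = 0.00468, edgeR). The members not called were Ifit1, Ifit3b, Cmpk2 and Samd9l. Markers of other cells changed between the same libraries. T and NK cell markers summed to 1.94 to 4.60 CPM in day 35 KO and 26.0 to 34.6 CPM in day 21 KO, and 8 of 8 tested were lower (median log2 fold change -3.75). Monocyte markers summed to 959 to 1404 CPM in day 35 KO and 2197 to 3030 CPM in day 21 KO, with 3 of 10 lower, and 3 of 8 border macrophage markers were lower as well. Homeostatic microglia markers summed to 13510 to 20318 CPM in day 35 KO and 10730 to 11412 CPM in day 21 KO, with 10 of 12 higher. Also higher at day 35 were 7 of 12 neutrophil, 5 of 5 erythroid, 5 of 6 neuron and 3 of 6 astrocyte markers. Their part in the fall of the members was not tested.

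In WT microglia the same interval gave 5 calls, all lower at day 35 (Ifit1, Ifit3, Oas1a, Oasl1 and Dhx58), beside 0.0576% of all genes. All 39 members had a negative value, with a median of -0.83, and 32 had an unadjusted p under 0.05 in edgeR. Of the 13880 genes tested, 935 had an unadjusted p under 0.05, in either direction. Ifit3 had 22.4, 13.5, 26.4 and 21.3 CPM in day 35 WT, against 42.6, 47.3 and 43.8 in day 21 WT (-1.09 ± 0.20 SE, adjusted p = 0.0287, edgeR). Ifit1 had 10.7, 7.596, 17.0 and 8.07 CPM in day 35 WT, against 31.6, 31.0 and 28.9 in day 21 WT (-1.49 ± 0.30 SE, adjusted p = 0.0434). No member kept its call in all fits without 1 library: the count was 0 without any of the 3 day 21 WT libraries, day 35 WT 2 or day 35 WT 4, 2 without day 35 WT 3 and 8 without day 35 WT 1. Shares of all genes called in these fits are not given here. The fall was larger in KO than in WT for 3 members, Herc6 (-0.82 ± 0.15 SE, adjusted p = 0.003), Parp14 (-0.82 ± 0.16 SE, adjusted p = 0.0052) and Trim30a (-0.52 ± 0.13 SE, adjusted p = 0.0265, edgeR), beside 0.807% of all genes. Trim30a lost this call without any of 7 libraries (adjusted p up to 0.0742). Of the 3, Herc6 had 56.5, 62.3, 64.0 and 64.7 CPM in day 35 KO, against 79.6, 67.3, 60.6 and 49.6 in day 35 WT, so that the genotypes overlapped again.

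At day 35 many members were still above naive levels in both genotypes. In KO, 29 of 39 were higher than in naive KO and 0 lower (median 0.94), beside 11.6% and 9.81% of all genes. In WT, 20 of 39 were higher than in naive WT and 0 lower (median 0.62), beside 8.4% and 10.7% of all genes. Ifit2 was the member with the largest value in KO, with 122.1, 131.5, 127.7 and 127.1 CPM in day 35 KO, against 13.8, 18.2, 30.3 and 23.4 in naive KO (2.57 ± 0.28 SE, adjusted p = 1.81e-06, edgeR). Mx1 in WT had 57.5, 46.3, 32.8 and 29.2 CPM at day 35, against 11.5, 12.2, 16.3 and 11.8 in naive WT (1.68 ± 0.21 SE, adjusted p = 1.15e-05). Both were separated from their naive libraries without overlap. Markers of other cells differed in these comparisons too. In WT, 12 of 12 neutrophil, 6 of 10 monocyte and 7 of 8 border macrophage markers were lower at day 35, with 0 higher. In KO, 10 of 12 homeostatic microglia and 5 of 8 border macrophage markers were lower, while 5 of 5 erythroid and 6 of 6 astrocyte markers were higher. None of the 12 neutrophil markers was called in KO. The part of these markers was not tested.

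KO against WT at day 35 gave 3 called members, all higher in KO: Ifit1, Ifit2 and Ifi27l2a. Of all genes 2.62% were called, 1.79% higher. Ifit1 had 23.0, 24.4, 18.7 and 21.5 CPM in day 35 KO, against 10.7, 7.596, 17.0 and 8.07 in day 35 WT (1.01 ± 0.28 SE, adjusted p = 0.0494, edgeR). Ifit2 had 122.1, 131.5, 127.7 and 127.1 CPM in KO, against 69.7, 58.6, 70.0 and 52.4 in WT (1.02 ± 0.26 SE, adjusted p = 0.0395). Ifi27l2a had 12.7, 14.05, 30.1 and 21.5 CPM in KO, against 9.28, 3.95, 11.1 and 9.65 in WT (1.21 ± 0.31 SE, adjusted p = 0.0377). In all 3 genes the libraries of the genotypes did not overlap. No call held in every fit without 1 library, where the count was 0 without day 35 KO 3, KO 4, WT 1, WT 2 or WT 4, 1 without KO 1 or KO 2 and 4 without WT 3. Shares of all genes called in these fits are not given here. Monocyte markers summed to 959 to 1404 CPM in day 35 KO and 99.7 to 311.5 CPM in day 35 WT, and neutrophil markers to 118 to 3302 CPM in KO and 4.53 to 39.1 CPM in WT. Of these lists 0 of 10 monocyte and 5 of 12 neutrophil markers were called higher by edgeR, with 2 and 10 at an unadjusted p under 0.05. Their part was not tested. The EAE score averaged 2.75 ± 0.204 in KO and 1.25 ± 0.289 in WT at day 35 (SD, n = 4 each), and 2.94 ± 0.125 in KO (n = 4) and 2.67 ± 0.577 in WT (n = 3) at day 21. The difference between genotypes in the EAE response by day 35 was called for 0 members by edgeR and 1 by DESeq2 (Ddx60), beside 0.367% of all genes called by edgeR. In edgeR 10 of the 39 members had an unadjusted p under 0.05, beside 2473 of the 13880 genes tested.

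**Figure D4:**
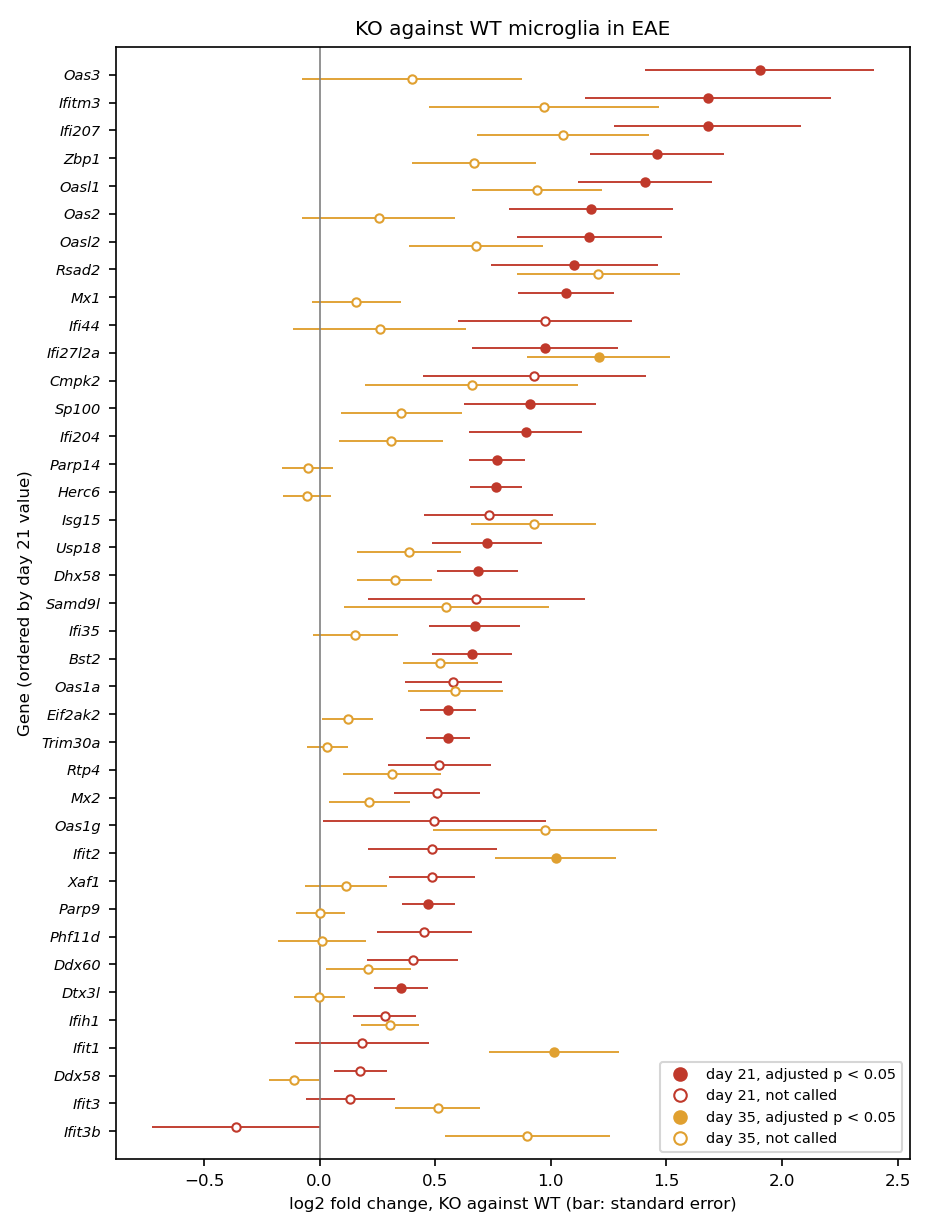
Log2 fold change of KO against WT (horizontal axis, with standard error) for the 39 members at day 21 (red) and day 35 (yellow), filled where the adjusted p is under 0.05. At day 21 22 members are filled and Ifit1, Ifit3 and Ifit3b are near the bottom, while at day 35 Ifit1, Ifit2 and Ifi27l2a are filled.

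In naive mice 0 of the 39 members were called between KO and WT by edgeR and 0 by DESeq2, beside 0.288% of all genes called by edgeR. In edgeR 7 of the 39 members had an unadjusted p under 0.05, beside 1293 of the 13880 genes tested. The median log2 fold change of the members was 0.01. Mx1 had 13.8, 13.9, 13.5 and 22.8 CPM in naive KO, against 11.5, 12.2, 16.3 and 11.8 in naive WT. Ifi204 had 32.7, 33.4, 39.2 and 25.2 CPM in naive KO, against 13.4, 24.4, 47.8 and 17.9 in naive WT, and it was called higher in KO without naive WT 3 (0.84 ± 0.18 SE, adjusted p = 0.0226). Libraries of naive KO and naive WT overlapped for 38 of 39 members, a count not made over all genes. Neutrophil markers summed to 121 to 2601 CPM in naive KO and 1533 to 16374 CPM in naive WT, and their part was not tested.

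In naive old mice 9 members were higher than in naive WT and 0 lower: Ifit2, Ifit3, Usp18, Oas1a, Zbp1, Bst2, Ifi27l2a, Ifi44 and Ifi204. Of all genes 5.03% were higher and 3.15% lower, and the members' median was 0.51. Ifit3 had 23.7, 20.2, 17.5 and 14.7 CPM in naive old, against 4.99, 7.96, 10.9 and 6.97 in naive WT (1.31 ± 0.20 SE, adjusted p = 0.000168, edgeR). Usp18, which also restrains signalling at IFNAR2, had 16.7, 15.1, 18.6 and 14.1 CPM in naive old, against 5.14, 5.62, 10.2 and 8.54 in naive WT (1.12 ± 0.24 SE, adjusted p = 0.00417). Bst2 had 38.2, 29.5, 40.6 and 26.0 CPM in naive old, against 21.6, 19.9, 17.2 and 16.1 in naive WT (0.85 ± 0.17 SE, adjusted p = 0.00189). For these 3 genes all old libraries were above all WT libraries. Ifi204 had 59.99, 58.1, 68.7 and 50.8 CPM in naive old, against 13.4, 24.4, 47.8 and 17.9 in naive WT (1.20 ± 0.24 SE, adjusted p = 0.00269).

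These 4 calls held in all 8 fits without 1 library, and the other 5 did not. A fit of the naive old and naive WT libraries alone left 3 calls, Ifit3, Usp18 and Bst2, with an adjusted p of 0.108 for Ifi204. Ifi44 had 3.17, 2.77, 2.91 and 1.92 CPM in naive old, against 0.294, 0.937, 1.64 and 0.427 in naive WT (1.71, adjusted p = 0.0179, and up to 0.0809). Zbp1 had 26.1, 18.9, 29.1 and 19.5 CPM in naive old, against 6.02, 8.90, 18.1 and 8.54 in naive WT (1.16, adjusted p = 0.0195, and up to 0.0784). Oas1a had 12.3, 6.40, 10.1 and 6.46 CPM in naive old, against 5.73, 3.28, 6.42 and 5.55 in naive WT, with overlap (0.73, adjusted p = 0.0359, and up to 0.179). The count was 4 without naive WT 1, naive WT 4 or naive old 1, 6 without naive old 3 and 14 without naive old 4. Neutrophil markers summed to 6952 to 13661 CPM in naive old and 1533 to 16374 CPM in naive WT. Without the 3 libraries above 10000 CPM 19 members were called, but the share of all genes called in that fit is not given here. Dendritic cell markers summed to 23.0 to 49.7 CPM in naive old and 13.8 to 17.9 CPM in naive WT, with no overlap. Of 9 such markers 5 were tested, 1 was called higher and 3 had an unadjusted p under 0.05 (edgeR), and Klk1 was at 0 in both groups. Their part was not tested.

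At day 35, 11 members were higher in old than in WT microglia and 0 lower (Ifit1, Ifit2, Oas1a, Zbp1, Ifitm3, Rsad2, Cmpk2, Samd9l, Ifi27l2a, Ifi207 and Sp100), beside 7.51% and 1.94% of all genes. The count was 0 without day 35 old 1, whose summed neutrophil markers were 31722 CPM, beside 1949 and 73.3 CPM in old 2 and 3. For that fit the share of all genes called is not given here. A loss of calls over all genes therefore cannot be told apart from a change in the members. Its monocyte markers summed to 4897 CPM, beside 477 and 652 CPM in old 2 and 3, and its homeostatic microglia markers to 9099 CPM, beside 26057 and 19117 CPM. Against day 35 WT, 12 of 12 neutrophil and 7 of 10 monocyte markers were called higher in day 35 old, and their part was not tested. EAE scores averaged 2.83 ± 0.144 in day 35 old (SD, n = 3) and 1.25 ± 0.289 in day 35 WT (n = 4). The part of this difference was not tested either. The count of members called was also 0 without day 35 WT 2 or WT 4, 5 without WT 1 and 7 without WT 3. Ifitm3 had 131, 30.8 and 20.1 CPM in day 35 old, against 21.3, 18.4, 18.1 and 15.7 in day 35 WT (1.71 ± 0.52 SE, adjusted p = 0.041, edgeR). Samd9l had 177.45, 34.8 and 34.5 CPM in day 35 old, against 31.1, 25.1, 18.1 and 25.4 in day 35 WT (1.72 ± 0.47 SE, adjusted p = 0.024). In both genes day 35 old 1 stood far above the other old libraries, and without it the log2 fold changes were 0.47 for both, with adjusted p of 0.774 for Ifitm3 and 0.717 for Samd9l. Ifit1, by contrast, had 28.6, 18.5 and 19.6 CPM in day 35 old, against 10.7, 7.596, 17.0 and 8.07 in day 35 WT (1.03 ± 0.30 SE, adjusted p = 0.0295), and 0.81 with an adjusted p of 0.454 without old 1. Oas1a had 15.1, 9.98 and 14.2 CPM in day 35 old, against 8.42, 5.47, 8.6 and 8.21 in day 35 WT, without overlap (0.76, adjusted p = 0.0269, and up to 0.426 with 1 library left out). Zbp1 had 89.9, 43.4 and 62.3 CPM in day 35 old, against 44.8, 41.6, 30.6 and 22.8 in day 35 WT, with overlap (0.90, adjusted p = 0.0484, and up to 0.54). Ifi207 had 137, 40.4 and 75.8 CPM in day 35 old, against 46.7, 39, 24.2 and 26.5 in day 35 WT, also with overlap (1.30, adjusted p = 0.0398, and up to 0.557).

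Against naive old, 19 members were higher in day 35 old and 0 lower (median 0.63, beside 10.4% and 8.03% of all genes), among them Mx2, which had 30.8, 18.7 and 30.6 CPM in day 35 old, against 8.96, 8.44, 10.7 and 13.4 in naive old (1.37 ± 0.20 SE, adjusted p = 0.000102). Without day 35 old 1 the count was 14 higher and 1 lower, which was Ifitm3 (-1.49, adjusted p = 0.0354). The difference between old and WT in the EAE response by day 35 was called for 0 members by edgeR and 0 by DESeq2. Over all genes, edgeR called 0.0432%. An unadjusted p under 0.05 was seen in edgeR for 4 of the 39 members, beside 1630 of the 13880 genes tested.

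The genes that act above the members were taken from lists of the pathway. Of 17 type I interferon ligand genes Ifnb1 alone passed the filter, and the other 16 summed to 75 counts over all libraries. Among these, Ifna2 had 14, 4, 15 and 2 counts in day 21 KO libraries, against 2, 4 and 4 in day 21 WT. It had 0 in every naive library and was not tested. Ifnb1 had 12.2 to 15.2 CPM in day 21 WT and 0 to 2.24 CPM in naive WT (log2 fold change 4.05 ± 0.59 SE, adjusted p = 2.33e-05, edgeR). Day 21 KO held 5.47 to 13.3 CPM of Ifnb1, with a value against day 21 WT of -0.46 (adjusted p = 0.538). At day 35 it had 11.0 to 15.4 CPM in KO and 1.57 to 5.94 CPM in WT, and was called higher in KO (1.86 ± 0.48 SE, adjusted p = 0.0377). Ifng, the type II ligand made by T and NK cells, had 8, 14, 11 and 15 counts in day 21 KO libraries, against 0, 0 and 1 in day 21 WT, a ratio of 44.8 per scaled library total (95% exact interval 7.67 to 1807, counting error only; adjusted p = 0.00658, edgeR). Of its receptor chains, Ifngr1 was lower in day 21 KO, at 421, 353, 380 and 405 CPM, against 608, 643 and 705 CPM in day 21 WT, with no overlap (-0.74 ± 0.20 SE, adjusted p = 0.00963, edgeR). Ifngr2 was not called (-0.17).

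Of 10 STAT and IRF factors compared between KO and WT at day 21, 4 were higher in KO (Stat2, Stat3, Irf1 and Irf7), 1 was lower and 5 were not called, with a median log2 fold change of 0.04. Irf4, the lower one, averaged 5.64 ± 0.390 CPM in KO and 9.85 ± 1.66 CPM in WT (-0.81 ± 0.16 SE, adjusted p = 0.000744, edgeR). Stat2 averaged 378 ± 16 CPM in KO and 176.6 ± 16.4 CPM in WT (1.10 ± 0.16 SE, adjusted p = 2.34e-05, edgeR). Irf7, the factor that amplifies interferon genes, averaged 170 ± 23.3 CPM in KO and 66.3 ± 5.85 CPM in WT (1.36 ± 0.26 SE, adjusted p = 0.000604; n = 4 KO and 3 WT libraries for each gene). Irf9, a partner of Stat2, had 88.2 ± 5.89 CPM in KO and 97.7 ± 2.04 CPM in WT and was not called (adjusted p = 0.372). Of the 4 receptor and kinase genes only Tyk2 was called, higher in KO by 0.30, while Ifnar1 lay at 160.7 to 180.5 CPM in KO and 160.6 to 176.7 CPM in WT. Of 8 tested negative regulators 5 were higher in day 21 KO and 0 lower, among them Socs1 (1.01, adjusted p = 0.041) and Adar (0.38, adjusted p = 0.00477). Of 14 tested genes more closely tied to interferon-gamma, such as the Gbp GTPases, Iigp1, Ciita and Cd274, 11 were higher in day 21 KO and 0 lower (median 1.45), beside 22 of the 39 members (median 0.68). Of all genes tested at day 21, 9.18% were higher in KO and 9.86% lower. At day 35, 1 of the 14 genes tied to interferon-gamma was higher in KO, beside 1.79% of all genes. It was the chemokine Cxcl10 (1.30 ± 0.30 SE, adjusted p = 0.029, edgeR).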

How the data were processed

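Libraries of sorted microglia were made with a SMARTer Stranded Pico kit for total RNA, per the labels' protocols. The authors deposited gene counts, and the submitters' processing notes name CASAVA, bcl2fastq, STAR and GRCm38. For versions, counter, annotation and strand setting the entry is: not given in the sources used here. EAE scores are the authors' clinical score per sample, per the labels. Of 32 count columns, 30 were tied to samples by plate well (30 of 30 wells matched the group in the title) and 2 were not used. Nothing states that libraries of a group came from separate animals, so p-values measure only the spread between these libraries.

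Counts were analysed in R 4.3.3 with edgeR 4.0.16 (TMM scaling, robust quasi-likelihood test, 8 group means, 22 residual degrees of freedom, 16 comparisons, Benjamini-Hochberg adjustment over 13880 genes, threshold 0.05). Genes were kept by edgeR's filter with a minimum count of 10 and a minimum total of 15. Library totals of 4712803 to 11034565 limit the precision for low genes. CPM use TMM-scaled totals. The procedure was tested on simulated data. Alternatives were DESeq2 1.42.0, other filters and scaling, an i5 index block, fits of only the groups compared, and leaving out each library. Leaving out the libraries high in neutrophil markers was chosen after seeing the data. limma 3.58.1, Python 3.11.15, pandas 2.3.3 and matplotlib 3.10.9 were also used.

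The members and lists were chosen with earlier results of these data known. Values of every library were to be given, in each role, for the members with the lowest adjusted p in WT at day 21 against naive and in KO against WT at day 21, and for the largest called change in the other comparisons of genotype or age. Further members shown by library were chosen after their values were seen. One gene of the pathway is not reported here.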

Additional observations from a re-analysis of the deposited data

Results flagged for a closer look

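Of 120 sets of 4 libraries (a named member in a group), 11 held a library far from the others, where chance gives about 1 in 20. In naive WT 3, Ifit2 (35.98 CPM) and Mx1 (16.27 CPM) were the highest of their groups. In naive old 4, Ifit1 (2.268 CPM), Eif2ak2 (56.71 CPM) and Parp14 (152.8 CPM) were the lowest. Mx1 was highest in naive KO 4 (22.84 CPM), Parp14 in naive KO 3 (192.0 CPM) and Ifi204 in day 35 KO 3 (120.6 CPM). Oas1a was lowest in day 35 WT 2 (5.47 CPM), and Eif2ak2 in day 21 KO 1 (198.6 CPM) and in day 35 WT 4 (84.43 CPM).

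The change from naive to day 21 differed between KO and WT, as a log2 difference of KO minus WT, for Herc6 (0.62), Oas3 (2.87), Ddx60 (1.08), Eif2ak2 (0.56), Parp14 (0.69), Ifitm3 (2.33), Trim30a (0.57) and Ifi207 (1.89). The change from day 21 to day 35 differed for Herc6 (-0.82), Parp14 (-0.82) and Trim30a (-0.52). Each was past the adjusted threshold of edgeR's quasi-likelihood test of the difference.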

How the results depend on the processing

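Counts of called members moved by over 1.5 times in these cases, with the cause not tested. The share of all genes called in each of these fits is not given here. A change in calls over all genes therefore cannot be told apart from a change in the members. Fits of only the groups compared gave 34 for KO against WT at day 21, 7 at day 35, 18 for WT day 35 against day 21, 3 for naive old and 0 for day 35 old against WT, 6 for old day 35 against naive, 14 for the KO difference in the day 21 response and 11 for that in the later fall. DESeq2 gave 7, 17, 14 and 1 for KO at day 35, WT day 35 against day 21, and the KO difference in the response by day 21 and by day 35. Without a filter on low counts, KO against WT at day 35 gave 0, day 35 old 2 and the day 21 difference 5. The i5 index block gave 9 for WT day 35 against day 21 and 4 for day 35 old, and the non-robust fit 1 for the first of these. With day 35 WT 3 counted as KO, WT day 35 against day 21 gave 2, day 35 old 5 and the KO difference in the fall 5. Without the libraries over 10000 CPM of neutrophil markers, naive KO gave 1, naive old 19, day 35 old 0 and the old difference in the response 1.

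With 1 library left out, counts ranged from 0 to 1 for naive KO, 12 to 21 for KO at day 21, 0 to 4 at day 35, 32 to 33 and 17 to 23 for WT day 21 and day 35 against naive, 0 to 8 for WT day 35 against day 21, 38 to 38, 26 to 29 and 32 to 33 for the same comparisons in KO, 4 to 14 for naive old, 0 to 14 for day 35 old, 13 to 24 for old day 35 against naive, 5 to 14, 0 to 0 and 2 to 4 for the KO differences by day 21, by day 35 and between them, and 0 to 1 for the old difference. For these fits, and for the same counts in the paragraphs above, the share of all genes called is not given here. In WT at day 21, values not called changed sign without the neutrophil-high libraries for Ifitm3 (0.065), Samd9l (0.054) and Cmpk2 (0.19). With 1 library left out they spanned -0.55 to 0.067 for Ifitm3, -0.65 to 0.049 for Samd9l, -0.64 to 0.19 for Cmpk2 and -0.30 to 0.30 for Oas3. The labels give no replicate numbers that pair libraries, so the i5 index, shared across groups, was the block fitted. Depth limits members such as Ifi44.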
